A study of Mus musculus with 3 samples.

Results

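The Mst1r vector array and the Slpi vector array were set directly against each other, to describe which genes and functions separated the 2 transfected cultures. Both samples were Hepa1c1c7 cells, a mouse hepatoma line, 1 culture with an expression vector for Mst1r and 1 culture with an expression vector for Slpi. Both cultures received their vector with a transfection reagent and were harvested after the same culture time. They are 2 of the 3 arrays of the series, and the third array, with empty vector, entered no difference and is quoted only beside named genes, after the other 2. The 2 arrays were chosen by their labels, and no measured value was used. The probes were chosen by position and detection. Of 56605 gene probes, 37807 lay in the lower rows of the array, and 16788 of these were well above background on both arrays. They represented 14167 features (genes or transcripts, each by its brightest probe) of 32666 in these rows and 45616 in all, and 9418 of the 14167 carried a gene symbol.

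Mst1r encodes RON, a receptor tyrosine kinase for macrophage-stimulating protein that signals through the ERK and STAT pathways. Slpi encodes a secreted inhibitor of serine proteases of the WAP-domain family. Cells that sense nucleic acid in the cytosol make interferon beta, which acts back on its receptor and through STATs and IRFs switches on genes that restrict viruses, among them the OAS, IFIT and GTP-binding families. Of the other programmes described here, SREBP2 drives the enzymes of cholesterol synthesis when sterols are scarce, and ATF4 drives amino acid transport and synthesis in the integrated stress response.

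Each group was 1 array, so the groups could not be tested against each other and every difference is that of a single pair of arrays. Signals are given as the processed signal of the scanner, which is not scaled. A log2 difference is Mst1r vector minus Slpi vector after each array was divided by its own 75th percentile signal, 229 and 254, respectively. The error after a log2 difference is 1 SD from the spread between spots of 1 array (median 0.16 over the features) and covers no variation between cultures. The 7 spike-in probes well above background differed by -0.29 ± 0.05 (SD over probes) before scaling and by a mean of -0.14 after it. The median difference over all features was -0.01, with quartiles of -0.16 and 0.17, and other scalings moved it from -0.16 to 0.12. It also depended on the signal, from 0.17 for the dimmest features to -0.07 for bright ones. All arrays shared 1 slide, on which position and group cannot be told apart.

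On these arrays the transfected genes gave no clear check of the labels. By real-time PCR, the paper reports Mst1r overexpression and raised Il33 in Hepa1c1c7 cells given the Mst1r vector. It had first selected Il33 from its microarrays of such cells. The single Mst1r probe was not well above background on either array, with a signal of 4.08 with Mst1r vector and 3.70 with Slpi vector, against 4.15 with empty vector. Slpi had 2 probes. The brighter gave 3843 with Mst1r vector, 6680 with Slpi vector and 6459 with empty vector, a difference of -0.65 ± 0.13. The dimmer gave 91.7, 85.8 and 106, respectively, a difference of 0.25 ± 0.17 in the other direction. Where these probes lie relative to the coding sequences in the vectors is not given in the sources used here, so they may check nothing of the vector. Mst1r vector and Slpi vector are used here as names of the labelled arrays. Il33, the alarmin cytokine that the study followed in these cells, had 1 probe in these rows, at 4.82 and 4.23, not well above background on either array. A second Il33 probe, in row 29 and so outside the rows compared, gave 166 and 3.79, of which the first alone stood well clear of background. The 2 probes of its receptor gene Il1rl1 in these rows were at 3.98 and 3.55 and at 3.77 and 3.33, likewise not well above background.

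The cells were checked against marker lists over all rows. Of 9 hepatocyte markers, 6 were well above background with Mst1r vector and 7 with Slpi vector. Krt8 was at 60684 and 64961 and the fetal liver protein Afp at 16911 and 18850, whereas the hepatocyte regulator Hnf4a (4.05 and 3.72 for its probe in row 319) and Apob were not well above background on either array. Of 15 macrophage and leukocyte markers, 6 and 7 were well above background, with a summed signal of 7289 and 7062. Itgam was at 2063 and 1894, Cd68 at 378 and 482 and Lyz1 at 110 and 157, all well above background on both arrays. The pan-leukocyte gene Ptprc was dark at 3.77 and 3.33. Of 14 endothelial and stellate markers, 9 and 8 were well above background, with a summed signal of 39371 and 52736, of which 27530 and 40480 came from Dcn. The endothelial genes Kdr, Tek and Cdh5 were not well above background on either array. Pecam1 (32.1 and 24.1), Stab2 (39.2 and 37.3) and Lyve1 (24.4 and 19.3) were dim but well above background on both. Several of these probes lie in the upper rows, which were left out of the comparison.

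Among the 14167 features, the Mst1r vector array was at least 2-fold higher for 206 (1.45%) and the Slpi vector array for 47 (0.332%). At 1.5-fold the numbers were 693 (4.89%) and 246 (1.74%). On either side of no difference, 48% of the features lay above 0 and 52% below, and the shares are the background against which gene lists are read below. The signals of the 2 arrays correlated closely across features (Pearson r = 0.99 on the log2 scale, across features, which are not replicates). Of the 253 features at least 2-fold apart, 243 differed by over 3 SD of the spot error. The median spot error of these features was 0.17, so this count follows largely from the 2-fold limit and adds no support. The features higher with Mst1r vector were dim, with a median signal of 138 on the brighter array and 81 of 206 under 100, while those higher with Slpi vector had a median of 426 and 8 of 47 under 100. Just inside the 2-fold limit lay Fam169b (1.002) and C1qtnf3 (-1.01), and just outside Csrnp1 (0.9993) and Tgfb3 (-0.99).

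**Figure D1:**
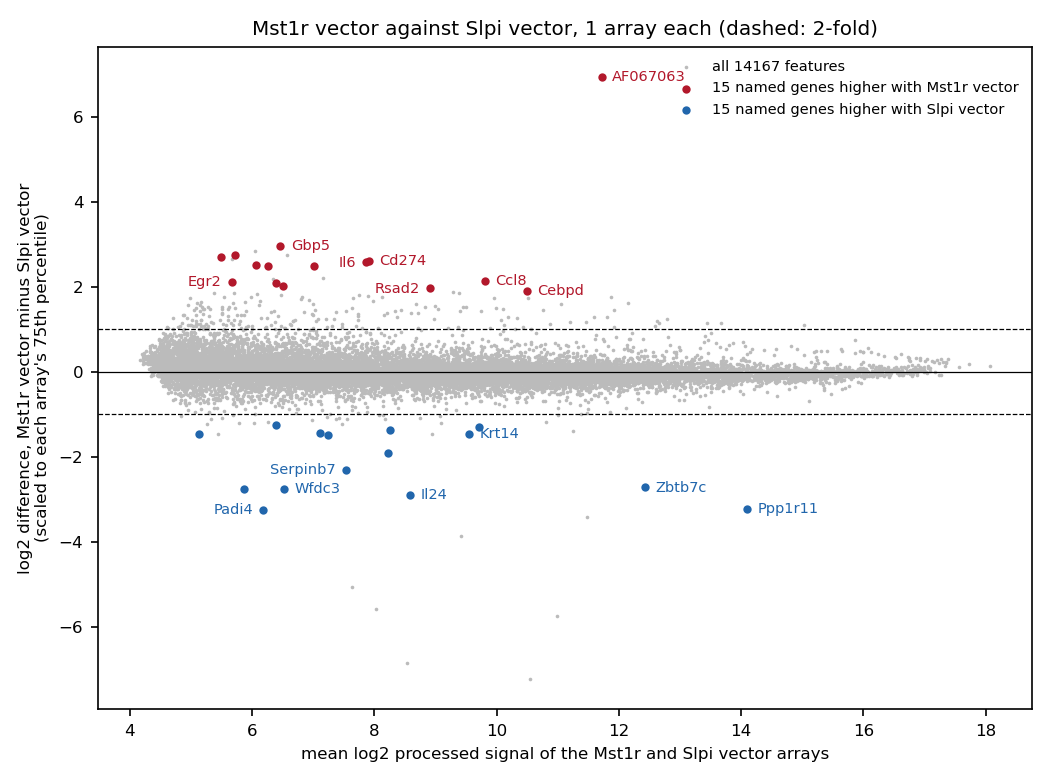
Log2 difference between the Mst1r vector and the Slpi vector array against the mean log2 processed signal for the 14167 features, 1 array per group, with dashed lines at 2-fold. AF067063 stands alone at the top with a difference of 6.94, and the 7 features that the Slpi vector array showed over 10-fold higher are unlabelled grey points at the bottom, down to -7.23.

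Genes of the interferon response were higher with Mst1r vector. Over 7 lists of this response, 122 genes had a probe, 98 of them in the rows used, and 87 were measured on both arrays. Of the 87, 64 lay above 0, 20 were at least 1.5-fold and 10 at least 2-fold higher with Mst1r vector, against 1 at least 1.5-fold and 0 at least 2-fold higher with Slpi vector. The median difference was 0.27 (0.12 to 0.41 over the alternatives). These counts rest on the brightest probe of each gene, and a second probe did not always lie on the same side. The brightest and second probes gave 0.45 and -0.07 for Adar, 0.16 and -0.18 for Ifnar1, and 0.22 and -0.07 for Ifnar2. They gave 0.74 and 0.70 for Irgm1 and 0.20 and 0.16 for Ddx58. In RNA from a whole culture, more cells that express a gene and more RNA per cell cannot be told apart. Of the 11 that did not pass, 5 were well above background with Mst1r vector only and 0 with Slpi vector only, beside 342 and 634 over all features. These 5 were visible only on the array where they were higher, so their number is an account of the members and adds nothing to the counts before it.

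Interferon beta itself was among them. Ifnb1 gave 383 with Mst1r vector, 122 with Slpi vector and 144 with empty vector, a difference of 1.80 ± 0.15 or 3.47-fold. The Mst1r vector array was thus the high one, and the other 2 arrays lay close together. Its receptor genes differed little, by 0.16 for Ifnar1 and 0.22 for Ifnar2, and the interferon gamma receptor genes Ifngr1 and Ifngr2 lay below 0 at -0.34 and -0.49. Among 22 genes for STATs, IRFs and receptors the median was 0.26, and 16 lay above 0. The kinase inhibitors that switch cytokine receptors off again were the largest besides Ifnb1. Socs3 gave 6543, 2147 and 2267 (Mst1r vector, Slpi vector, empty vector), a difference of 1.76 ± 0.13, and Socs1 gave 318, 124 and 134, a difference of 1.51 ± 0.15. The transcription factors lay lower, with 0.69 ± 0.17 for Irf1, 0.51 for Irf7 and 0.38 for Irf9.

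The guanylate-binding proteins, large GTPases that attack the vacuoles of intracellular pathogens, had a list median of 0.85, with 4 of 4 measured members above 0. With so few members the median ran from 0.25 to 2.97 over the alternatives, so its rank among the lists is not settled. Gbp5 gave 234 with Mst1r vector, 33.2 with Slpi vector and 35.3 with empty vector, a difference of 2.97 ± 0.18 or 7.84-fold. Gbp7 was at 77.4 and 43.2 (0.99), Gbp6 at 71.3 and 48.2 (0.72) and Gbp10 at 83.3 and 78.0 (0.25). All 4 of these signals are dim. The immunity-related GTPases, which act on the same vacuoles, were bright, with a median of 0.68 (0.53 to 0.95 over the alternatives) and 6 of 6 above 0. Igtp gave 4573, 2072 and 2278, a difference of 1.29 ± 0.13, and Tgtp2 gave 3996, 1980 and 1954, a difference of 1.17 ± 0.12. Irgm1 followed at 4239 and 2829 (0.74). In both families the Mst1r vector array was higher than the Slpi vector array for every member measured.

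The IFIT proteins, which bind foreign RNA, and the ISG15 conjugation pathway had 7 measured members, all above 0, with a median of 0.36. Ifit3b gave 1131, 342 and 426, a difference of 1.88 ± 0.15, and the ubiquitin-like modifier Isg15 gave 20149, 13793 and 16427, a difference of 0.70 ± 0.11. Usp18, the protease that removes ISG15, was at 7833 and 6196 (0.49). Of 20 genes for OAS enzymes and other antiviral effectors, 18 lay above 0 with a median of 0.39. Rsad2, which encodes the antiviral enzyme viperin, gave 906, 258 and 342, a difference of 1.96 ± 0.16, and its second probe gave 114, 48.7 and 55.1, a difference of 1.38 ± 0.19. The OAS genes themselves ranged from -0.11 for Oas1c and 0.19 for Oas1a to 0.40 for Oas2 and 0.46 for Oas3.

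Of 10 genes for nucleic acid sensing, 8 lay above 0 with a median of 0.20. Zbp1, a sensor of Z-form nucleic acid, gave 567, 310 and 291, a difference of 1.02 ± 0.16. The RNA sensor gene Ddx58 (RIG-I) differed by 0.20 and the adaptor gene Mavs by -0.10. The list for MHC class I presentation stood apart from the others, with 13 of 18 below 0 and a median of -0.06. Its highest member was Nlrc5, the transactivator of MHC class I genes, at 189, 92.5 and 89.1, a difference of 1.18 ± 0.16. Known targets of Nlrc5 lay at -0.01 for B2m and -0.06 for H2-K1, and the peptide transporter subunits at 0.55 for Tap1 and -0.36 for Tap2.

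Some genes were well above background with Mst1r vector only, which gives a bound for the fold. Those named here were the genes with a symbol and the largest bounds. Each passed only on the array where it was higher, so they add no support to the interferon counts. Ifi202b and Ifi205 are among the interferon-list genes already counted above as seen with Mst1r vector only. Batf2, a BATF-family transcription factor, was at 1029 with Mst1r vector, 17.5 with Slpi vector and 17.0 with empty vector, at least 65.4-fold higher with Mst1r vector. The p200-family genes Ifi202b (247 against 4.10) and Ifi205 (147 against 10.7) were at least 16.6-fold and at least 9.88-fold higher. Ubd, a ubiquitin-like protein gene, was at least 5.58-fold, the cytokine gene Il19 at least 5.13-fold and the signalling adaptor gene Pag1 at least 4.97-fold higher. For these bounds a dim signal was raised, where it was lower, to the dimmest signal that counted as well above background in these rows, 16.6 with Slpi vector and 18.8 with Mst1r vector. In all, 342 features were well above background with Mst1r vector only and 91 of them had a bound of at least 2-fold, against 634 and 21 with Slpi vector only.

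**Figure D2:**
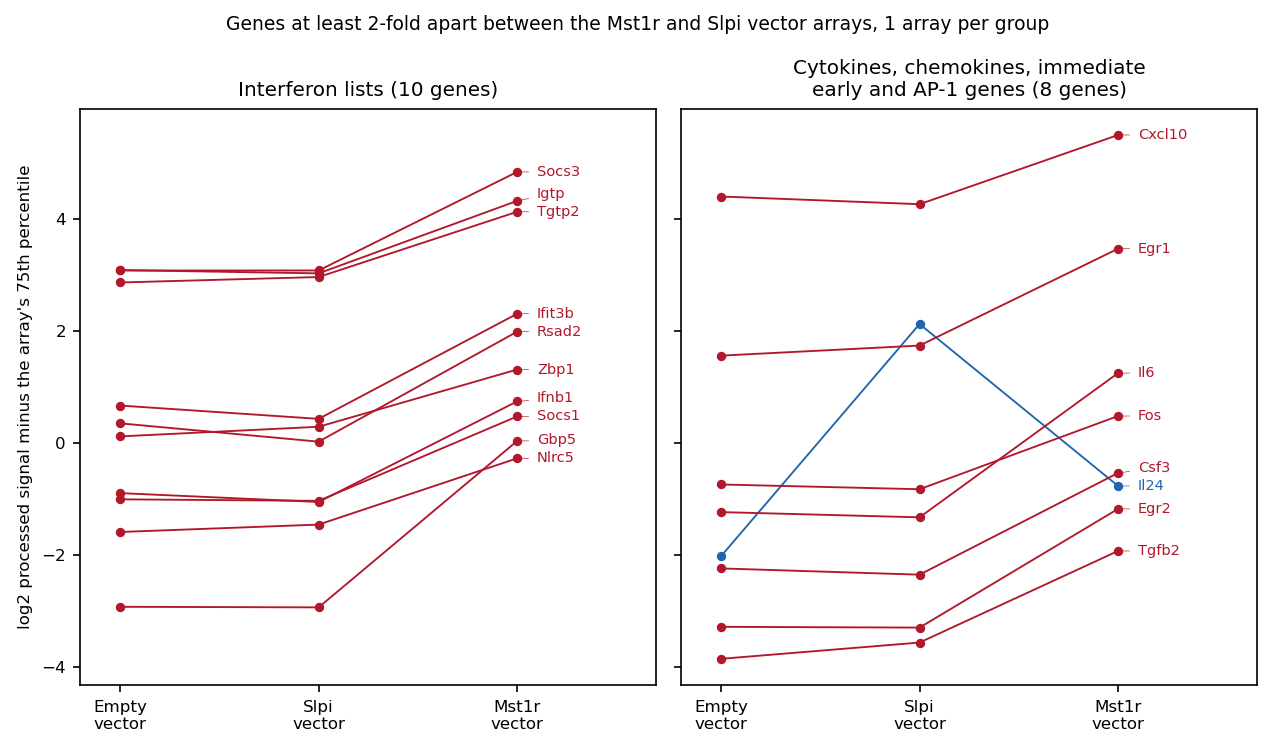
Log2 processed signal relative to each array's 75th percentile for genes at least 2-fold apart between the Mst1r and Slpi vector arrays, with a line joining the values of 1 probe on the 3 arrays. The 10 interferon-list genes on the left and 7 of the 8 genes on the right lie higher on the Mst1r vector array than on both other arrays, and Il24 lies highest on the Slpi vector array.

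The bases before the start site of some of these genes are shown because they hold the core of the interferon-stimulated response element, the site that IRF and STAT-containing complexes bind. The letters searched were GAAANNGAAA, on both strands and with overlapping matches counted, in the 250 bases before each start in the RefSeq promoter table (GRCm38.p6). They occurred before 936 of 27025 genes in the table (3.46%). The table holds 68 of the 87 interferon-list genes, which is under 80%, so no share is given for the list. The first 5 sequences belong to genes at least 2-fold higher with Mst1r vector. The last belong to B2m and Oas1c, with differences of -0.01 and -0.11, so the letters were also present before genes that were not higher with Mst1r vector. Capitals mark the matches, and each window is 120 bases long.
Gbp5 (chr3:142496709-142496828, + strand): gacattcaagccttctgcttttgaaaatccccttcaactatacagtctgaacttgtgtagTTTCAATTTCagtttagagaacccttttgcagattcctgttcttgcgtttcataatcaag
Rsad2 (chr12:26456513-26456632, - strand): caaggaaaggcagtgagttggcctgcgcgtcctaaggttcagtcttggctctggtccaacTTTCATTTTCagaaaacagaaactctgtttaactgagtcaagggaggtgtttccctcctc
Ifit3b (chr19:34607709-34607828, + strand): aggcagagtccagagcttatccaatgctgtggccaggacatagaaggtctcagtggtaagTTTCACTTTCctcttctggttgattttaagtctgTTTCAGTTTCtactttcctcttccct
Socs1 (chr16:10785560-10785679, - strand): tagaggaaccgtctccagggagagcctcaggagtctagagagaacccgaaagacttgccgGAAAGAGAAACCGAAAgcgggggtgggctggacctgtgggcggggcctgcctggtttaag
Igtp (chr11:58199436-58199555, + strand): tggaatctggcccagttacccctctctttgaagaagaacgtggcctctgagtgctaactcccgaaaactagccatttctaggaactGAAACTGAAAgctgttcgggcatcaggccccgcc
B2m (chr2:122147488-122147607, + strand): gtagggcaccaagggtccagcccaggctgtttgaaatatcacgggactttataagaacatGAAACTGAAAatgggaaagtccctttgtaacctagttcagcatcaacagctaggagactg
Oas1c (chr5:120812569-120812688, - strand): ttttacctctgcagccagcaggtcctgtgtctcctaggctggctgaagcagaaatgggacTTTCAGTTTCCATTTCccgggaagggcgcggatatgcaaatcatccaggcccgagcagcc
Ifit3b held 2 matches, 188 and 154 bases before the start, counted to the upstream end of the match. In Socs1 and Oas1c the 2 matches overlap. Gbp5 held 1 match at 165 bases and Igtp 1 at 34 bases. A match describes the sequence and is no evidence of binding in these cells.

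Single genes for cytokines, chemokines and growth signals were also higher with Mst1r vector, while the medians of their lists lay between -0.12 and 0.22. Il6, which encodes an inflammatory cytokine that acts through STAT3, gave 543 with Mst1r vector, 101 with Slpi vector and 114 with empty vector, a difference of 2.58 ± 0.15 or 5.96-fold. A second Il6 probe, in a row that was not used, gave 301, 48.8 and 57.1. Csf3, the granulocyte growth factor gene, gave 158, 49.8 and 56.8, a difference of 1.81 ± 0.18. Tgfb2 was dim at 60.1, 21.5 and 18.6, a difference of 1.64 ± 0.36. Over the 13 measured cytokine and growth factor genes the median was 0.22, and 9 lay above 0. Il24 went the other way by its brightest probe, at 134, 1107 and 66.1, a difference of -2.89 ± 0.13, but its second probe in an unused row gave 413, 72.0 and 141, a difference of 2.67 ± 0.15. The direction of Il24 therefore depended on the probe.

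The chemokine list did not lean to either side, with a median of -0.03 over 11 genes and 5 above 0, yet single members differed. Cxcl10, an interferon-inducible attractant of T cells, gave 10333, 4875 and 5661, a difference of 1.24 ± 0.14, and the monocyte attractant gene Ccl7 was at 6708 and 4365 (0.77). Cxcl5 and Cxcl16 were higher with Slpi vector, at -0.68 and -0.69. Ccl4 gave 130, 21.4 and 35.6, a difference of 2.75 ± 0.33, and its second probe in an unused row gave 225, 47.0 and 66.0. Ccl8, another monocyte attractant, gave 1785, 453 and 407, a difference of 2.13 ± 0.15. Ccl4 and Ccl8 were named by their size and were not in the list. Both differed by more than any member of the list, whose median and count leave them out. The bright Ccl2 was nearly level at 63959 and 76658 (-0.11).

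Immediate early genes, which answer receptor and serum signals within minutes to hours, showed a few large differences and a median of 0.06 over 15 genes, which ran from -0.09 to 0.45 over the alternatives. Egr1 gave 2530, 848 and 790, a difference of 1.73 ± 0.15, and the related zinc finger gene Egr2 gave 101, 25.9 and 27.6, a difference of 2.12 ± 0.34. Fos, a subunit of AP-1, gave 319, 143 and 160, a difference of 1.31 ± 0.14. Its partners lay closer to 0, with 0.24 for Jun, 0.45 for Junb and -0.14 for Jund. Myc was level at 2914 and 3095 (0.06). Of 14 genes for ERK feedback, none reached 2-fold, with Dusp10 at 0.67 and Dusp1 at 0.61, and the median was 0.10. Of 14 NF-kB pathway genes, 9 lay below 0, from -0.54 for Nfkbie to 0.52 for Nfkbiz.

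The largest difference of a gene with a symbol, among those measured on both arrays, was that of AF067063. It gave 35358 with Mst1r vector, 321 with Slpi vector and 310 with empty vector, a difference of 6.94 ± 0.14 or 123-fold. Its second probe, in row 124, gave 41.5 with Mst1r vector and was not well above background with Slpi vector (13.9). AF067063, Tcstv3 and Gm4340 are known as genes transcribed when the mouse embryo first activates its genome. Tcstv3 was at 292, 57.7 and 47.3 (2.49 ± 0.17), and Gm4340 at 151, 29.4 and 32.5 (2.52 ± 0.33). Gm4340 has near-identical copies that the probe may not tell apart. Cd274, which encodes the checkpoint ligand PD-L1, gave 565, 102 and 92.0, a difference of 2.62 ± 0.15. Cebpd, a transcription factor gene of the acute phase response, gave 2646, 787 and 878, a difference of 1.90 ± 0.15. The other genes named by size were 4930429H19Rik (2.69), Cep85l (2.50), Urah (2.08) and Serpina3f (2.03). The second Serpina3f probe was also brighter with Mst1r vector, at 21.8 against 3.73, and that of Urah was dark on both arrays. The largest feature on the Mst1r side that was not matched to a symbol here was NM_010846, at 168 and 26.2 (2.83 ± 0.33).

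Fewer genes were higher with Slpi vector. Of the 5 described first, Ppp1r11 and Tas1r3 had no second probe, and none of the others had one that differed in the same way. Ppp1r11, an inhibitor of protein phosphatase 1, gave 5414 with Mst1r vector, 56685 with Slpi vector and 6860 with empty vector, a difference of -3.24 ± 0.11 or 9.42-fold. The zinc finger gene Zbtb7c gave 2043, 14989 and 2344 (-2.72 ± 0.13), but its second probe, in row 10, gave 121, 124 and 140. Itih4, a plasma protein gene, gave 21.3, 161 and 23.5 (-2.76 ± 0.26), with a second probe dark on all 3 arrays. Wfdc3, a WAP-domain relative of Slpi, gave 33.8, 254 and 49.3 (-2.76 ± 0.19), whereas its second probe gave 34.2, 27.1 and 25.7. Tas1r3, a taste receptor subunit gene, gave 146, 615 and 88.5 (-1.92 ± 0.16). In these probes of the 5 genes the Slpi vector array was the high one.

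In a second group the Mst1r vector array was the low one, and the Slpi and empty vector arrays lay close together. Padi4, which encodes a protein-arginine deiminase, gave 22.4 with Mst1r vector, 237 with Slpi vector and 266 with empty vector, a difference of -3.25 ± 0.26, and its second probe was dark on all 3 arrays. Serpinb7, a serpin gene of keratinocytes, gave 79.5, 439 and 471 (-2.31 ± 0.17), and the basal keratin gene Krt14 gave 429, 1319 and 1602 (-1.47 ± 0.13). The membrane protease gene Mmp24 gave 181, 521 and 521 (-1.37 ± 0.16). Mab21l4 was at 51.6, 136 and 166 (-1.25), and Gm10639 differed by -1.44. Clec4d, a C-type lectin gene, was barely above background with Mst1r vector and at 61.5 and 85.7 on the other arrays (-1.47 ± 0.28). Tlcd3a lay between, at 86.1, 267 and 122 (-1.48).

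Among features measured on both arrays, the differences over 10-fold on this side carried no gene symbol. The 7 features ranged from 10.7-fold to 150-fold. ENSMUST00000133300 gave 116 with Mst1r vector, 19428 with Slpi vector and 126 with empty vector, a difference of -7.23 ± 0.13. On the Mst1r side 1 feature measured on both arrays, AF067063, exceeded 10-fold. Outside these, Batf2 and Ifi202b, seen with Mst1r vector only, were at least 65.4-fold and at least 16.6-fold higher. Among features well above background with Slpi vector only, Mirt1 was at least 6.83-fold and Klrh1 at least 6.08-fold higher, followed by Speer5-ps1 (5.28), Gm16023 (4.17) and the collagen genes Col5a3 (3.98) and Col6a3 (3.41), each as a bound. Apoa1, a hepatocyte marker, was also well above background with Slpi vector only, at 43.1 against 9.64.

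The genes of cholesterol synthesis were lower with Mst1r vector almost throughout. Of 20 measured, 19 lay below 0, 8 were at least 1.5-fold and 1 at least 2-fold higher with Slpi vector, and the median was -0.51 (-0.67 to -0.38 over the alternatives). Hmgcs1, at the entry of the mevalonate pathway, gave 1735 with Mst1r vector, 3188 with Slpi vector and 3299 with empty vector (-0.73 ± 0.12), and Mvd, which makes isopentenyl diphosphate, gave 237, 439 and 374 (-0.74 ± 0.16). Hsd17b7 gave 799, 1552 and 1458 (-0.80 ± 0.13) and Dhcr7 124, 221 and 224 (-0.68 ± 0.16). For each of these enzymes the Mst1r vector array was the lowest of the 3.

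Genes that control the pathway differed among themselves. Srebf2, which encodes SREBP2, was at 304 and 527 (-0.64) and its retention factor gene Insig1 at 27.4 and 44.1 (-0.53). Of controlling genes outside the cholesterol list, named after their values were seen, Scap, the escort of SREBP2, differed by -0.31, while Insig2 (0.08), the SREBP protease gene Mbtps2 (-0.01) and Srebf1 (-0.02) were near 0. The member of the list above 0 was Tm7sf2, a sterol reductase gene, at 72.0, 51.1 and 45.4 (0.65 ± 0.19). The related fatty acid list held 13 measured genes with a median of -0.20 and 10 below 0, among them Acaca (-0.58), Scd2 (-0.55) and Fads2 (-0.53). The window of Hmgcs1 is shown because it was the single measured gene of this list whose table entry held the sterol regulatory element searched, TCACNCCAC on both strands, which occurred before 1.22% of all genes in the table.
Hmgcs1 (chr13:119690154-119690273, + strand): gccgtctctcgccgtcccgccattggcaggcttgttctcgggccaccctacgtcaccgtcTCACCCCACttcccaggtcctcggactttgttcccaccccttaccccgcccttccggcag
The table holds 14 of the 20 cholesterol genes, so no share is given for the list either.

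Genes of the integrated stress response and of amino acid supply lay on the other side. All 24 measured members were above 0, with Mst1r vector 6 were at least 1.5-fold and 2 at least 2-fold higher, and the median was 0.27 (0.12 to 0.41 over the alternatives). The glycine transporter gene Slc6a9 gave 1698, 933 and 859, a difference of 1.02 ± 0.15, and the mitochondrial folate enzyme gene Aldh1l2 gave 145, 79.6 and 84.3 (1.02 ± 0.16). Ppp1r15a (GADD34), which restores translation after stress, gave 4979, 3161 and 2963 (0.81 ± 0.13). The pseudokinase gene Trib3 gave 3030, 2079 and 1669 (0.70 ± 0.12), and Ddit3 (CHOP) gave 1524, 1083 and 1182 (0.64 ± 0.12). The cationic amino acid transporter gene Slc7a3 was dim, at 39.6 with Mst1r vector, and lay just under the 2-fold limit with an error of 0.36. At the other end, the transfer RNA synthetase genes were close to level, at 0.03 for Gars, 0.11 for Cars and 0.12 for Aars. The chaperone genes of the endoplasmic reticulum were nearly flat, with a median of 0.02 over 18 genes and Hyou1 highest at 0.60. That Hyou1 probe was dim, at 64.0 and 46.8, and the second Hyou1 probe differed by -0.13.

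**Figure D3:**
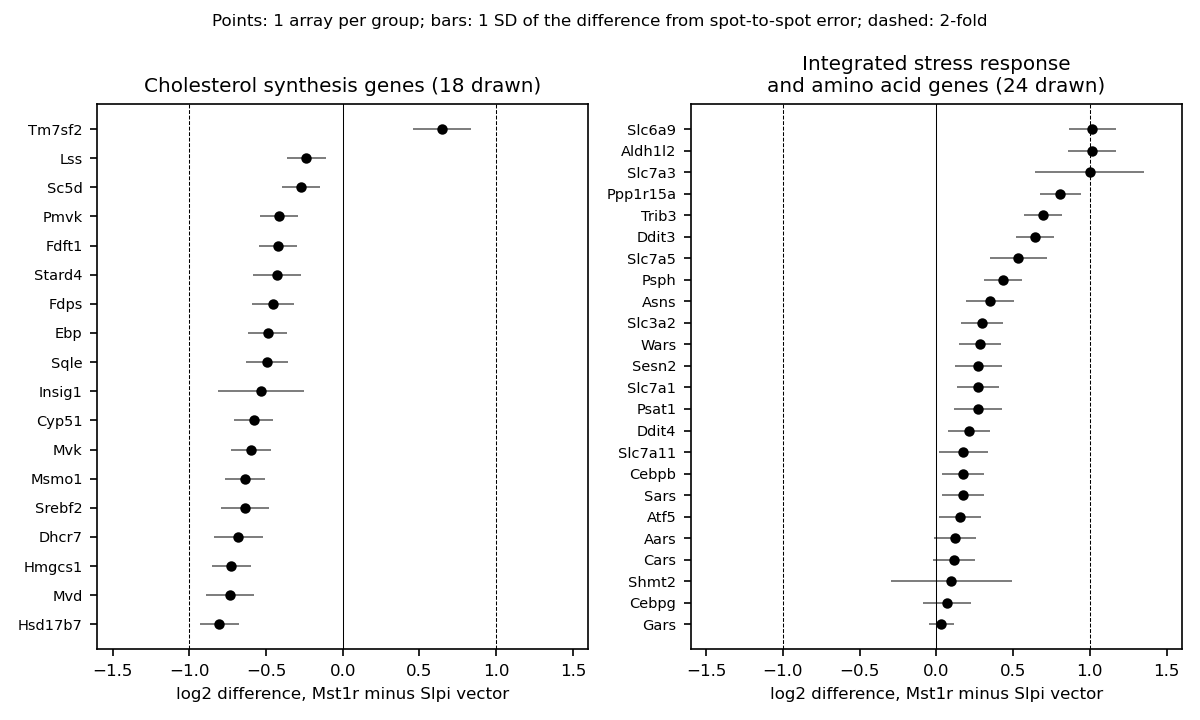
Log2 difference between the Mst1r vector and the Slpi vector array for measured genes of 2 lists, with bars of 1 SD from the spread between spots and dashed lines at 2-fold. All cholesterol synthesis genes drawn except Tm7sf2 lie left of 0, and all 24 integrated stress response genes lie right of 0, up to 1.02.

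Cell division genes showed small differences that mostly went one way. Of 32 genes for mitosis and the spindle, 27 lay below 0 with a median of -0.16 (-0.31 to -0.03 over the alternatives), and none reached 1.5-fold. The mitotic kinase gene Plk1 was at 10270 and 14874 (-0.38), and the cyclin gene Ccnb1 at 3473 and 5064 (-0.39). Of 30 genes for DNA replication, 25 lay below 0 with a median of -0.16, among them Chaf1a (-0.53) and Ccne1 (-0.48). Among 22 histone genes the median was 0.05, with H2bc4 at 5305, 2830 and 3570 (1.06 ± 0.13) and H2bc6 at 112 and 65.6 (0.92 ± 0.17). The 61 ribosomal protein genes lay in a narrow range, from -0.15 to 0.15 around a median of 0.00.

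Genes of energy metabolism and stress proteins were close to level. Of 42 oxidative phosphorylation genes, 36 lay below 0, but the median was -0.08 and changed sign with the scaling (-0.23 to 0.05). Ndufb2, a subunit of respiratory complex I, stood apart at 6497, 11370 and 12582 (-0.66 ± 0.14). The 15 glycolysis genes had a median of -0.09, with Aldoc at -0.53. The 18 heat shock genes had a median of 0.00, with 8 above and 10 below 0, and the cochaperone gene Stip1 alone was at least 1.5-fold apart, at 2526, 5388 and 4969 (-0.94 ± 0.13).

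Hepatocyte functions were measured in few genes, because 22 of 33 plasma protein genes in these rows did not pass. Besides Itih4, the copper carrier gene Cp gave 3158, 6308 and 6166 (-0.85 ± 0.13), whereas albumin (Alb) gave 3575, 2800 and 3095 (0.50 ± 0.12). Of 11 hepatocyte transcription factor genes, Nr1i3, the xenobiotic receptor CAR, was at 39.1 and 20.8 (1.07 ± 0.36). Of 10 complement and acute phase genes, the heme carrier gene Hpx was at 76.5 and 41.8 (1.02 ± 0.19), Lcn2 at 2685 and 4578 (-0.62) and C3 at 25183 and 35876 (-0.36). The aryl hydrocarbon receptor gene Ahr gave 771, 1443 and 1641 (-0.75 ± 0.13), and its target gene Cyp1a1 gave 866, 1432 and 1645 (-0.57 ± 0.13). In both the Mst1r vector array was the lowest of the 3. The other 2 measured members of the list of 4 lay on the opposite side, at 0.21 for Tiparp, another target, and 0.21 for the partner gene Arnt.

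The remaining lists gave single differences. Among 21 NRF2 targets and metallothioneins the median was -0.08, with the glutathione transferase gene Gsta3 at 362 and 699 (-0.80) and Sqstm1 at 45653 and 35894 (0.50). None of 20 p53 target and BCL2 family genes reached 1.5-fold. Of 10 measured genes of the MSP and HGF pathway, 9 lay below 0 with a median of -0.20, among them the activating protease gene Hpn at 985 and 1502 (-0.46) and the protease inhibitor gene Spint2 at 895 and 1331 (-0.42). Among 8 measured genes of the Slpi and WAP-domain list, Wfdc12 was at 26.1, 62.8 and 56.0 (-1.12 ± 0.28). Of 15 epithelial and mesenchymal genes, the tight junction gene Cldn2 was lowest at 105, 230 and 245 (-0.98 ± 0.16), followed by Krt7 (-0.58) and Snai1 (-0.42).

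**Figure D4:**
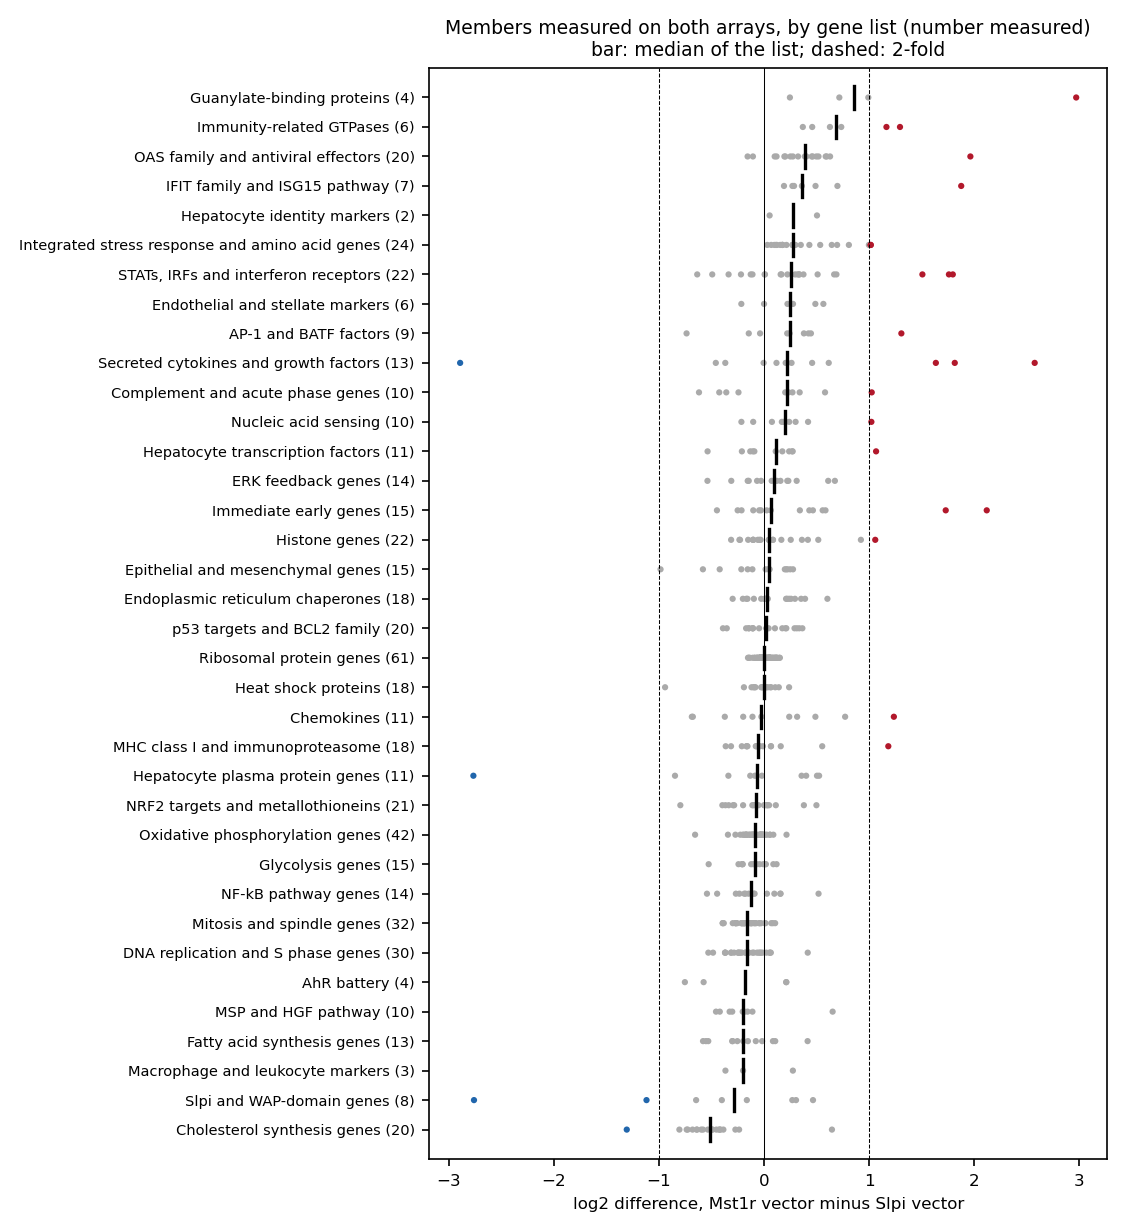
Log2 difference between the Mst1r vector and the Slpi vector array for every measured member of the 36 gene lists, in order of the list median (black bar), with the number measured in brackets, dashed lines at 2-fold and members past 2-fold in red (Mst1r vector higher) or blue (Slpi vector higher). Guanylate-binding proteins lie at the top with a median of 0.85 and cholesterol synthesis genes at the bottom with -0.51.

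Second probes of the same gene gave the available check within these arrays. Over 2205 genes with at least 2 probes measured on both arrays, the differences of the brightest and the next probe correlated with r = 0.45 (Pearson, across genes, on the same 2 arrays) and differed by a median of 0.13. Of 9 genes at least 2-fold apart with such a second probe, 7 had it in the same direction and 4 also at least 2-fold. Rsad2, Tfpi, Tenm4 and Hs3st6 were these 4, and Wfdc3 was among the 2 that went the other way. Tfpi, an inhibitor of coagulation, differed by 1.59 ± 0.16 and 1.26 ± 0.19 in its 2 probes. Hs3st6, a heparan sulfate sulfotransferase gene, differed by -1.10 and -1.52, and Tenm4 by -1.17 and -1.28.

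**Figure D5:**
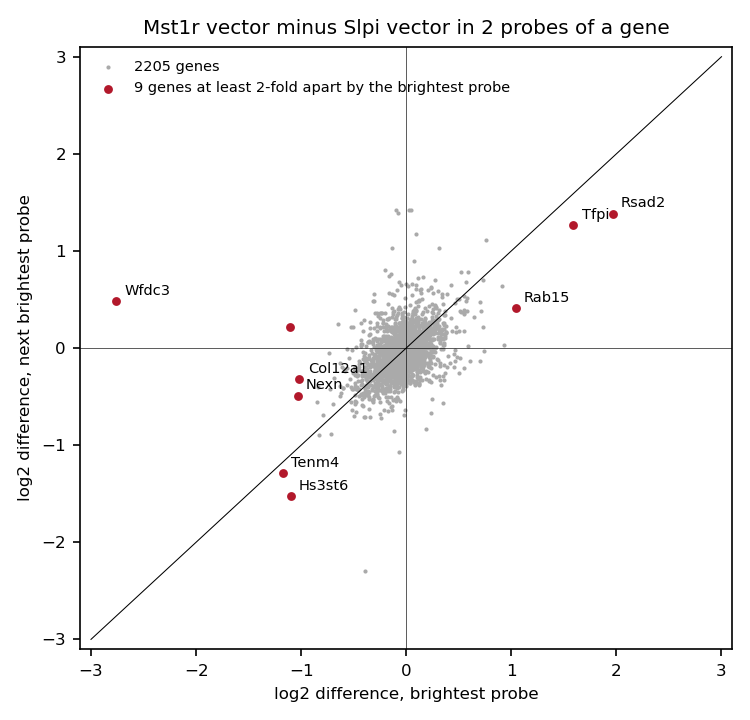
Log2 difference (Mst1r vector minus Slpi vector) of the next brightest probe against that of the brightest probe for 2205 genes, with the line of equal values, and the 9 genes at least 2-fold apart by the brightest probe in red. Rsad2 and Tfpi lie near the line at the upper right, and Wfdc3 lies far from it at -2.76 and 0.49.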

How the data were processed

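Gene expression was measured on 3 single-colour Agilent SurePrint G3 Mouse arrays (mm9 design) from 100 ng of total RNA each, 1 per group, with groups taken from the labels. The authors deposited scanner files whose values are spot intensities. Per the file headers they were extracted with Feature Extraction 12.0.3.1, not the version in the methods, and the processed signal is background-subtracted and spatially detrended but not scaled between arrays. A deposited table of all 3 arrays held the same intensities per probe and was used as an alternative.

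Unflagged spots of a probe were averaged as log2 processed signal (300 probes were printed 10 times, the others once), and each array was scaled to its 75th percentile, taken over its non-control probes. Control spots and the upper rows of the array, where more features differed, were left out, and a probe had to be well above background on both arrays. A gene was represented by its brightest probe. RefSeq accessions, without version, matched 25126 of 47837 to a symbol (GRCm38.p6 table, used for names and promoter windows only). The SD between spots came from probes with at least 4 usable spots, by signal level. Below a log2 signal of 14 it rests on 2 to 14 probes a level, so it is approximate. At 1 array per group no test was made, a call is a fold of 2 (or 1.5), and the number of arrays limits the precision. A fold change of a dim gene is also limited by the background.

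The genes named are the transfected genes with Il33 and Il1rl1, the 15 largest differences per direction among genes with a symbol at least 2-fold apart, the 3 members of each list farthest from the median of all genes, up to 6 genes per direction seen on 1 array only, and the largest feature without a symbol per direction. Some genes that this rule picks are not reported here. Other members, promoter windows and second probes were named after their values were seen. The comparison, the 36 gene lists (902 genes) and the rule were chosen with earlier results of these data known. The alternatives were 12 planned settings of scaling, background correction, rows, filter, spots, probes and source of values, and 1 setting added after seeing the data, in which the difference is centred on genes of like signal. The normexp correction used median spot intensities. Scripts were tested on simulated data and run in Python 3.11.15 with numpy 2.4.6 and pandas 2.3.3, and R 4.3.3 with limma 3.58.1.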

Additional observations from a re-analysis of the deposited data

Results flagged for a closer look

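A second Il33 probe, in row 29 and therefore outside the rows compared, stood above background on the Mst1r vector array alone. Its signal was 166 with Mst1r vector, 3.79 with Slpi vector and 8.41 with empty vector, while the probe in row 195 was at 4.82, 4.23 and 8.10. The signal was singled out because it appears in data that no comparison here used and lies above the signal of the empty vector array, the single control. The upper rows held 7900 features measured on both arrays, of which 3.46% showed at least a 2-fold excess with Mst1r vector and 1.42% with Slpi vector, against 1.45% and 0.332% in the rows used. The paper selected Il33 from its microarrays of Hepa1c1c7 cells overexpressing Mst1r, without naming the probe. It then reports the rise by real-time PCR as well. Whether the row has a part in the Il33 signal on the array was not tested.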

How the results depend on the processing

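The number of genes at least 2-fold higher was 206 with Mst1r vector and 47 with Slpi vector. With normexp background correction the numbers were 81 and 24, with all rows 446 and 143, with the lowest rows of the array alone 106 and 26, and with a processed signal over 50 on both arrays 107 and 31. The last 2 settings test fewer genes. Without scaling 73 genes were higher with Slpi vector. More genes were higher with Mst1r vector under each of these settings. The scaling moved the median of all genes from -0.01 to between -0.16 and 0.12 and each list median with it, so a list is read relative to that median. The interferon median of 0.27 was 0.12 without scaling, and that of mitosis genes went from -0.16 to -0.31. The heat shock median of 0.00 was -0.14 with median scaling, 0.13 with spike-in scaling and -0.16 without scaling, so it has no settled sign. No called value changed sign under the alternatives. Of 48 named genes at least 2-fold apart, 38 remained so with normexp, 42 with median scaling and without scaling, and 45 to 48 under the other settings that kept all of them. All 32 with a signal over 50 on both arrays and all 23 in the lowest rows remained so. The cause of these moves was not tested. No paired analysis was possible because each group is 1 array.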
